A study of Mus musculus with 24 samples.

Results

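The comparison of mice given a blocking anti-IL10 antibody with mice given an isotype control antibody rests on 5 liver neutrophil libraries of the 24 in the series. All 5 came from mice of the NOD.c3c4 strain, in which autoimmunity against the bile ducts arises spontaneously, after 10 intravenous doses of nanoparticles coated with PDC166, a product the series describes as peptide-MHC nanoparticles. The 2 anti-IL10 libraries came from nanoparticle-treated mice that also received blocking anti-IL10, and the 3 isotype libraries from nanoparticle-treated mice that also received the isotype control. The libraries were chosen by their column names, and all genes are described. The other nanoparticle-treated groups of the same table were anti-TGFb (n = 2), anti-IL35 (n = 2), anti-IL21R (n = 3) and anti-GCF (n = 3). The sources used here give no age, sex, antibody clone or dose, and do not say whether replicates were separate animals or pools, so p-values measure only the spread between these libraries.

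Interleukin-10 is a cytokine that signals through a receptor of the subunits Il10ra and Il10rb, the kinases Jak1 and Tyk2 and the transcription factor Stat3. In macrophages and neutrophils it induces Socs3, Bcl3 and Nfil3 and represses inflammatory cytokines, chemokines and antigen presentation genes. It also restrains interferon-gamma production by T and natural killer (NK) cells, and interferon-gamma in turn raises guanylate-binding proteins, Cxcl9 and MHC genes.

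Total counts were 23.9 and 28.2 M in the anti-IL10 libraries and 27.0, 47.5 and 30.2 M in the isotype libraries. The calprotectin genes S100a8 and S100a9, which mark neutrophils, together took 3.68% and 6.55% of the counts with anti-IL10 and 8.83%, 9.14% and 10.3% with isotype. All 5 libraries therefore carried the defining neutrophil transcripts at high levels, and both anti-IL10 libraries held a smaller share of them than any isotype library. The TMM scaling factors were 1.35 and 1.08 with anti-IL10 and 0.943, 0.833 and 0.888 with isotype. Levels below are CPM, in which each count is divided by the TMM-scaled size of its library. In bulk RNA, fewer cells of a type and less RNA per cell cannot be told apart.

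Of 16812 genes tested, 2961 (17.6%) passed an adjusted p of 0.05 by the edgeR quasi-likelihood test, with 1787 (10.6%) higher and 1174 (6.98%) lower with anti-IL10 than with isotype. The leading higher genes were those of cytotoxic lymphocytes, with Gzmb and Gzma both more than 3.9 log2 units higher. Acute-phase, interferon-induced and antigen presentation genes were also higher. Neutrophil granule, erythroid, cell cycle and respiratory chain genes were among those called lower. The median log2 fold change was 1.41 in the higher genes, -0.88 in the lower genes and 0.03 in all genes tested.

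The count depended on anti-IL10 replicate 1. Without it 288 genes were called, 266 higher and 22 lower, and without replicate 2 the count was 3309. The genes called with both replicates and with each alone numbered 260 higher and 19 lower. Replicate 1 was the more extreme library for 85.4% of the higher genes and for 89.9% of the lower genes, whereas it lay above replicate 2 for 51.8% of all genes tested. Leaving out isotype replicate 2 gave 1479 calls and leaving out isotype replicate 3 gave 1888. DESeq2 divided the calls into 1996 higher and 2028 lower, against 1787 and 1174 by edgeR.

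**Figure D1:**
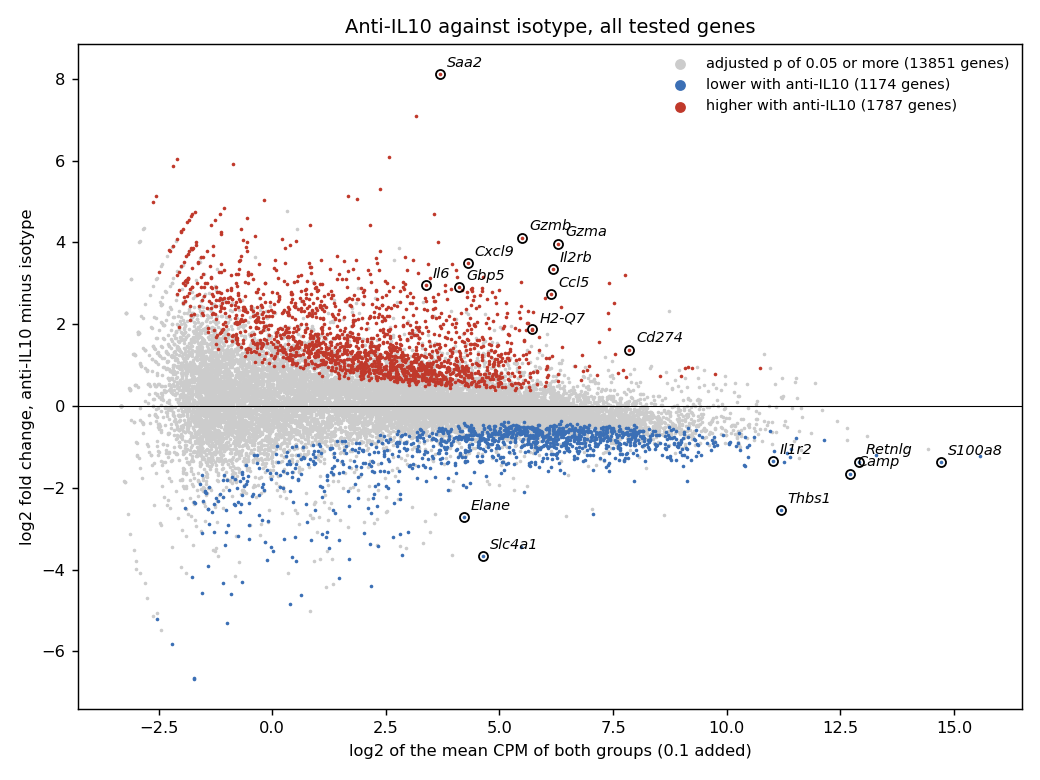
Log2 fold change of anti-IL10 over isotype (y axis) against the log2 mean CPM of both groups (x axis, 0.1 added) for the 16812 tested genes, with genes at an adjusted p under 0.05 in red (1787 higher) and blue (1174 lower). Gzmb and Gzma lie at moderate abundance near a log2 fold change of 4, and S100a8, Camp and Retnlg lie at the abundant end below 0.

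Genes of T and NK cells were higher with anti-IL10, and most kept their call with either anti-IL10 library alone. Of 15 T and NK cell markers tested, 12 were higher and 1 was lower, against 10.6% and 6.98% of all genes. Their median log2 fold change was 2.18 against 0.03 over all genes. Without anti-IL10 replicate 1, 10 were still called higher and none lower, and without replicate 2 the counts were 12 higher and 1 lower. The summed level of the markers was 695 and 681 CPM with anti-IL10, against 293, 340 and 433 CPM with isotype.

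The regulatory DNA ahead of Gzma, Nkg7 and Ncr1, picked from these genes, is shown first. Each window is the stretch before the RefSeq start of the gene on GRCm38.p6, at most 250 bases long, without bases that GENCODE M21 places in an exon. Capitals mark TGTGGT on either strand, the core letters bound by Runx transcription factors of lymphocytes. The Gzma window is chr13:113100982-113101231 on the minus strand, that of Nkg7 is chr7:43436888-43437072 on the plus strand and that of Ncr1 is chr7:4337465-4337714 on the plus strand.
Gzma: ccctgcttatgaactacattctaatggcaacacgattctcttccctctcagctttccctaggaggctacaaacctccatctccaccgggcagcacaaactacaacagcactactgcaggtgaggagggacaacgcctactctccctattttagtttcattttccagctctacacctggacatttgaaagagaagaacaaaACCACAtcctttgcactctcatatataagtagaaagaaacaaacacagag
Nkg7: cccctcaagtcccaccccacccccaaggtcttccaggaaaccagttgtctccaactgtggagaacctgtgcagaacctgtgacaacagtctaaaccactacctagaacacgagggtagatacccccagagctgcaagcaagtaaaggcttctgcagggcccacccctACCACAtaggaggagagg
Ncr1: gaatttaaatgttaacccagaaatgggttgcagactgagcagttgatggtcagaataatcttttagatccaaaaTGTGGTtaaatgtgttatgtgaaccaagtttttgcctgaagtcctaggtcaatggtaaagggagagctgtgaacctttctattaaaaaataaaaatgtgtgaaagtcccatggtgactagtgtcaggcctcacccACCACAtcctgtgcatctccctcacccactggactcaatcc

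Gzma held 1 match, its first base 50 bases before the start, Nkg7 held 1 at 83 bases, and Ncr1 held 2, at 176 and 41 bases. The motif was picked after the genes were known, and its share among the T and NK cell genes was not counted. It stood in the 250 bases before 14% of all 32851 starts in the RefSeq table, and before 12.6% of the 1321 higher genes, 12.9% of the 904 lower genes and 11.5% of the 11616 tested genes with an entry. The matches are therefore a description of these windows, and were about as frequent among called genes as among tested ones. The STAT motif TTCNNNGAA, scanned as well, stood before 6.59% of the higher genes, 4.31% of the lower genes and 6.25% of the tested genes.

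Gzmb, the granzyme that activates caspases in target cells (chromosome 14, 56258838 to 56262260, minus strand, GRCm38), had the smallest adjusted p. It measured 85.0 and 84.8 CPM with anti-IL10 and 4.60, 5.06 and 4.99 CPM with isotype. The libraries within each group were close together and the groups did not overlap. The log2 fold change was 4.12 (SE 0.18, adjusted p = 3.74e-08 by edgeR) and lay between 4.08 and 4.16 under 15 alternatives. Gzma, a tryptase of the same granules, had 168 and 126 CPM with anti-IL10 and 6.45, 9.10 and 12.6 CPM with isotype. Its log2 fold change was 3.97 (SE 0.28, adjusted p = 1.5e-05, edgeR).

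Il2rb, the beta chain through which NK and memory T cells receive interleukin-2 and interleukin-15, measured 134 and 128 CPM with anti-IL10 and 16.8, 8.30 and 13.6 CPM with isotype, a log2 fold change of 3.35. Nkg7, a cytotoxic granule membrane protein, had 54.9 and 64.3 CPM with anti-IL10 and 12.5, 11.7 and 12.8 CPM with isotype. Ncr1, the NK receptor NKp46, had 31.3 and 28.3 CPM with anti-IL10 and 3.54, 2.33 and 3.06 CPM with isotype. In each of these 3 genes the lowest anti-IL10 library was far above the highest isotype library, and the call held in 15 of 15 alternatives. Klra5, an Ly49 family receptor, and Xcl1, a chemokine made by NK and CD8 T cells, were higher by 3.56 and 2.79 log2 units and also held in 15 of 15.

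Receptor complex and signalling genes of T cells moved with them. Cd3e had 41.6 and 37.5 CPM with anti-IL10 and 8.22, 3.92 and 9.76 CPM with isotype, which is 2.44 log2 units higher (SE 0.31, adjusted p = 0.000467, edgeR). Cd3d, which encodes another subunit of the same complex, went the other way, with 66.5 and 113 CPM with anti-IL10 and 188, 267 and 275 CPM with isotype. Its log2 fold change was -1.44 (adjusted p = 0.00884, edgeR), and without anti-IL10 replicate 1 the adjusted p was 0.161. Genes outside the naming rule, picked after their values were seen, included Zap70, the kinase bound to the T cell receptor complex, with 29.4 and 23.5 CPM with anti-IL10 and 4.37, 2.17 and 4.51 CPM with isotype. Likewise Cxcr3, the receptor for Cxcl9, had 20.6 and 20.9 CPM with anti-IL10 and 4.76, 4.50 and 4.40 CPM with isotype. Klrk1 (NKG2D) and Il12rb2, a chain of the interleukin-12 receptor, were higher by 2.81 and 3.09 log2 units, and these 4 genes held in 15 of 15 alternatives.

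**Figure D2:**
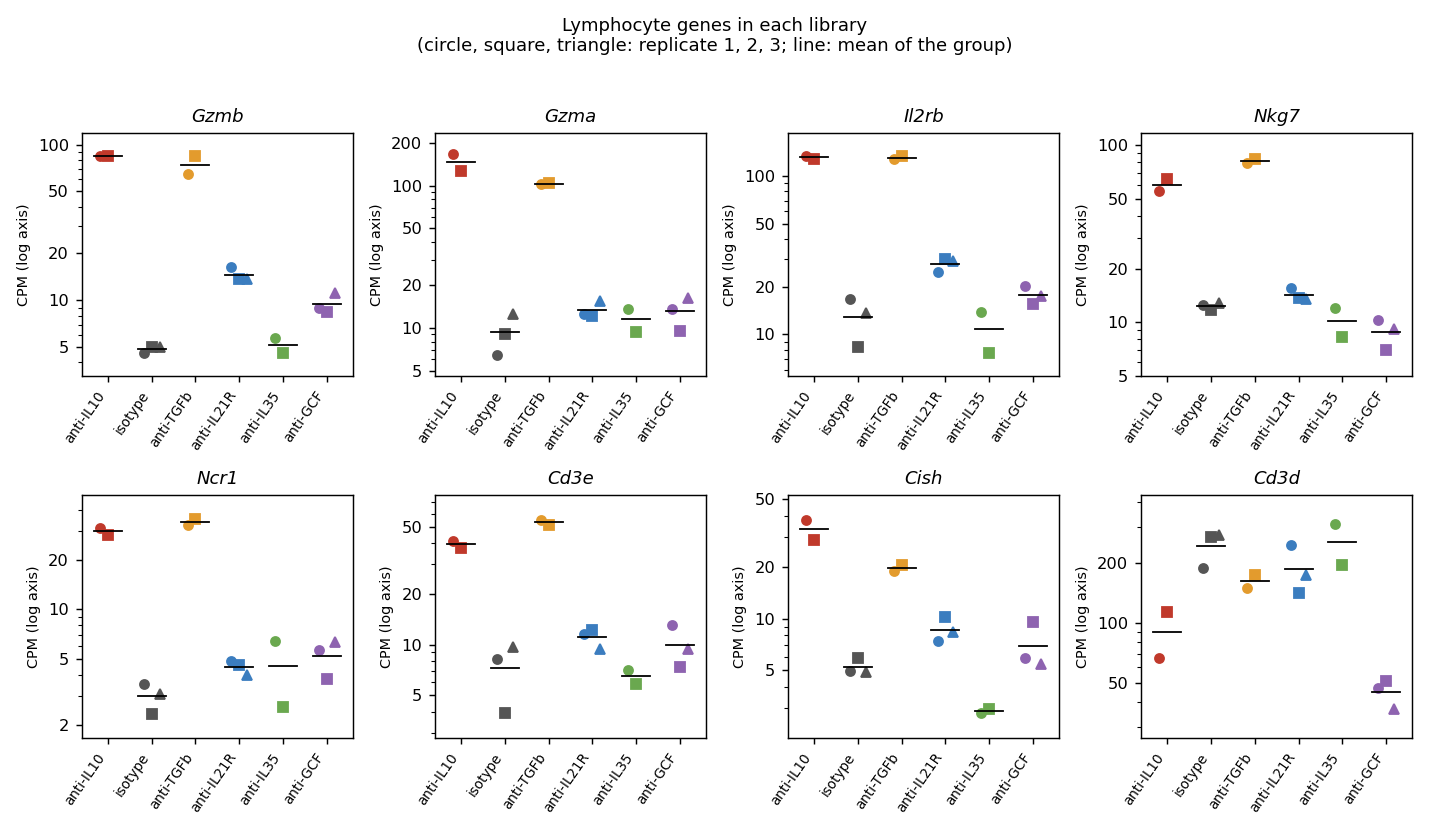
CPM of 8 lymphocyte genes (log axis) in each library of the 6 antibody groups, with symbols for replicate numbers and lines for group means. In the panels other than Cd3d the anti-IL10 points (such as 85.0 and 84.8 CPM for Gzmb) lie above every isotype point, while in the Cd3d panel they lie below.

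Cish, a Stat5 target that cytokines such as interleukin-2 induce in lymphocytes, had 37.8 and 28.9 CPM with anti-IL10 and 4.96, 5.89 and 4.88 CPM with isotype (log2 fold change 2.67, adjusted p = 4.14e-05, edgeR). It belonged to the list of the IL-10 receptor and Jak-Stat pathway. Where 10.6% of all genes were higher and 6.98% lower, 3 of its 18 genes were higher and none lower. Another was the kinase Tyk2, higher by 0.52 log2 units. The median of the list was 0.02, close to that of all genes. The receptor subunits and Stat3 did not pass the test. Il10ra had 182 and 147 CPM with anti-IL10 and 151, 102 and 110 CPM with isotype, and Il10rb had 57.4 and 53.9 CPM with anti-IL10 and 53.8, 64.2 and 66.2 CPM with isotype. Stat3 measured 271 and 292 CPM with anti-IL10 and 347, 245 and 248 CPM with isotype, with a log2 fold change of 0.01 (SE 0.23).

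The blocked cytokine's own transcript was low. Il10 had 8.43 and 4.19 CPM with anti-IL10 and 3.42, 4.65 and 4.73 CPM with isotype, groups that overlapped, with a fitted log2 ratio of 0.56 (SE 0.66, adjusted p = 0.583, edgeR). An antibody against the protein does not remove its transcript, so Il10 does not check the labels.

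Of 18 genes known to be induced by IL-10 in myeloid cells, 1 was lower, a share near the 6.98% of all genes, none was higher, and the median log2 fold change was -0.05. The lower gene was Nfil3, a transcription factor, with 178 and 234 CPM with anti-IL10 and 257, 531 and 438 CPM with isotype (log2 fold change -0.99, adjusted p = 0.0216, edgeR). Its call was lost in 4 of 15 alternatives. Socs3, the feedback inhibitor of Stat3 signalling, had 263 and 168 CPM with anti-IL10 and 85.9, 137 and 164 CPM with isotype. Bcl3, a nuclear inhibitor of NF-kB, had 36.5 and 32.5 CPM with anti-IL10 and 34.8, 43.9 and 34.5 CPM with isotype. Il1rn, the interleukin-1 receptor antagonist, had 186 and 181 CPM with anti-IL10 and 241, 330 and 278 CPM with isotype, a log2 fold change of -0.62 that missed the threshold (adjusted p = 0.176, edgeR).

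Of 24 genes known to be repressed by IL-10 in myeloid cells, 7 were higher and 1 was lower, with a median log2 fold change of 1.09. Over all genes 10.6% were higher and 6.98% lower. With replicate 1 left out 3 were higher. Il6, an inducer of the acute-phase response, had 19.7 and 16.7 CPM with anti-IL10 and 3.42, 1.75 and 1.94 CPM with isotype. Its log2 fold change was 2.95 (SE 0.51, adjusted p = 0.00365, edgeR), and the call held in 15 of 15 alternatives. Cxcl9, a chemokine for Cxcr3-bearing lymphocytes, had 40.3 and 31.7 CPM with anti-IL10 and 1.38, 4.48 and 3.58 CPM with isotype. Ccl5, a chemokine that T and NK cells themselves make, had 138 and 106 CPM with anti-IL10 and 15.4, 18.3 and 20.8 CPM with isotype. Both held in 15 of 15.

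Nos2, the inducible nitric oxide synthase, was low in every library, with 6.88 and 6.06 CPM with anti-IL10 and 0.275, 0.683 and 1.23 CPM with isotype. Its log2 fold change of 3.14 lost its call without anti-IL10 replicate 1 (largest adjusted p 0.158 over the alternatives, edgeR). Tnf had 714 and 570 CPM with anti-IL10 and 401, 325 and 326 CPM with isotype, and missed the threshold at an adjusted p of 0.0561. Il1b had 2797 and 2354 CPM with anti-IL10 and 942, 1002 and 1249 CPM with isotype, with an adjusted p of 0.0813. For both cytokines the groups did not overlap. Genes whose libraries did not overlap made up 27% of all tested genes on the higher side and 21.7% on the lower side. Cd80, a costimulatory ligand, went the other way, with 15.3 and 17.3 CPM with anti-IL10 and 35.5, 35.33 and 34.7 CPM with isotype (log2 fold change -1.11).

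The acute-phase genes Saa2 and Saa1 had the largest fold changes that the naming rule admitted. Saa2 had 26.0 and 25.1 CPM with anti-IL10 (840 and 766 counts) and 0.118, 0.0506 and 0.112 CPM with isotype (3, 2 and 3 counts). Its fitted log2 fold change was 8.11 (SE 0.94, adjusted p = 0.000515, edgeR), and that of Saa1 was 7.10. With 8 isotype counts in all for Saa2 and 11 for Saa1, the size of both folds is set by very few reads. Both genes are abundantly made by hepatocytes in the acute phase, and the neighbouring family members are similar in sequence, so the division of reads between them is uncertain. The summed level of 17 hepatocyte markers was 1607 and 2415 CPM with anti-IL10 and 1830, 2880 and 2572 CPM with isotype, values that overlapped. The median log2 fold change of the single markers was 1.12. Over all genes 10.6% were called higher, and 27% were higher in both anti-IL10 libraries than in any isotype library. Of the 17 markers, 11 were higher in both anti-IL10 libraries than in any isotype library. Of these markers 4 were called higher with both libraries and none without replicate 1, where the median was 1.07. One was Cyp2e1, a liver cytochrome P450, with 24.7 and 23.7 CPM with anti-IL10 and 1.97, 7.92 and 5.78 CPM with isotype. The part of hepatocyte RNA in the Saa result was not tested.

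Of 37 interferon response genes, 11 were higher with anti-IL10, where 10.6% of all genes were, and none was lower, with a median log2 fold change of 0.89. The median was 0.80 with anti-IL10 replicate 2 alone, but only 1 member passed the test there. The promoters of the guanylate-binding proteins Gbp5 and Gbp3 are printed because they carry the element that interferons act through. Capitals mark GAAA, any 2 bases and GAAA again on either strand, the core of the interferon-stimulated response element, in chr3:142496684-142496899 for Gbp5 and chr3:142559794-142560025 for Gbp3, both on the plus strand.
Gbp5: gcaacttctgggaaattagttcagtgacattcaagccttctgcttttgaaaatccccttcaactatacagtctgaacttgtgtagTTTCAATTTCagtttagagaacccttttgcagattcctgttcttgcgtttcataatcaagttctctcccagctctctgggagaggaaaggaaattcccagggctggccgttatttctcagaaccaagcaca
Gbp3: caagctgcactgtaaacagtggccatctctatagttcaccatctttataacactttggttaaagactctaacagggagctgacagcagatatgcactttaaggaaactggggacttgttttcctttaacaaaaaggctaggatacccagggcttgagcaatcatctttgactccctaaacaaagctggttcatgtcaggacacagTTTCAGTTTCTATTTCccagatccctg

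Gbp5 held 1 match, starting 165 bases before the RefSeq start, and Gbp3 held 2 overlapping matches, at 45 and 39 bases. The letters stood before 2.98% of all starts, and before 4.01% of the higher genes, 2.54% of the lower genes and 2.85% of the tested genes with an entry. Gbp5 had 37.4 and 23.3 CPM with anti-IL10 and 3.66, 3.87 and 4.58 CPM with isotype, which is 2.91 log2 units higher (SE 0.52, adjusted p = 0.00529, edgeR). Gbp3 had 61.4 and 37.9 CPM with anti-IL10 and 7.12, 5.84 and 8.83 CPM with isotype, a log2 fold change of 2.78. Without anti-IL10 replicate 1 both kept a log2 fold change above 2.3 but not the call, with adjusted p of 0.0758 and 0.115 by edgeR. Iigp1, an interferon-gamma induced GTPase, held throughout, with 31.7 and 24.7 CPM with anti-IL10 and 1.61, 3.19 and 2.72 CPM with isotype. Ifitm1, a membrane protein that restricts virus entry, had 311 and 309 CPM with anti-IL10 and 38.6, 60.3 and 63.6 CPM with isotype.

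Antigen presentation genes were also higher. Of 16 MHC class I presentation genes 9 were higher and none lower, with a median of 0.85. Of 12 MHC class II and accessory genes 8 were higher and 1 lower, with a median of 0.93. Over all genes 10.6% were higher and 6.98% lower. H2-Q7, a class Ib molecule, had 93.2 and 71.9 CPM with anti-IL10 and 20.6, 23.1 and 23.8 CPM with isotype (log2 fold change 1.88, adjusted p = 0.000826, edgeR) and held in 15 of 15 alternatives. Nlrc5, the class I transactivator, had 95.6 and 68.2 CPM with anti-IL10 and 19.0, 13.02 and 16.9 CPM with isotype. For class II, H2-DMa, which helps load peptides, had 102 and 72.1 CPM with anti-IL10 and 46.3, 40.8 and 45.8 CPM with isotype. The invariant chain gene Cd74 had 2627 and 1811 CPM with anti-IL10 and 1175, 1088 and 1247 CPM with isotype. The lower member was Cd80. Without anti-IL10 replicate 1 the class II list had 0 genes called and the class I list 1, although the medians were still 0.59 and 0.81. H2-Q7 and its neighbours are near-identical paralogs, so reads may have been divided between them. The inhibitory ligand Cd274 (PD-L1), also induced by interferon-gamma, had 397 and 269 CPM with anti-IL10 and 144, 122 and 119 CPM with isotype, and lost its call in 3 of 15 alternatives.

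**Figure D3:**
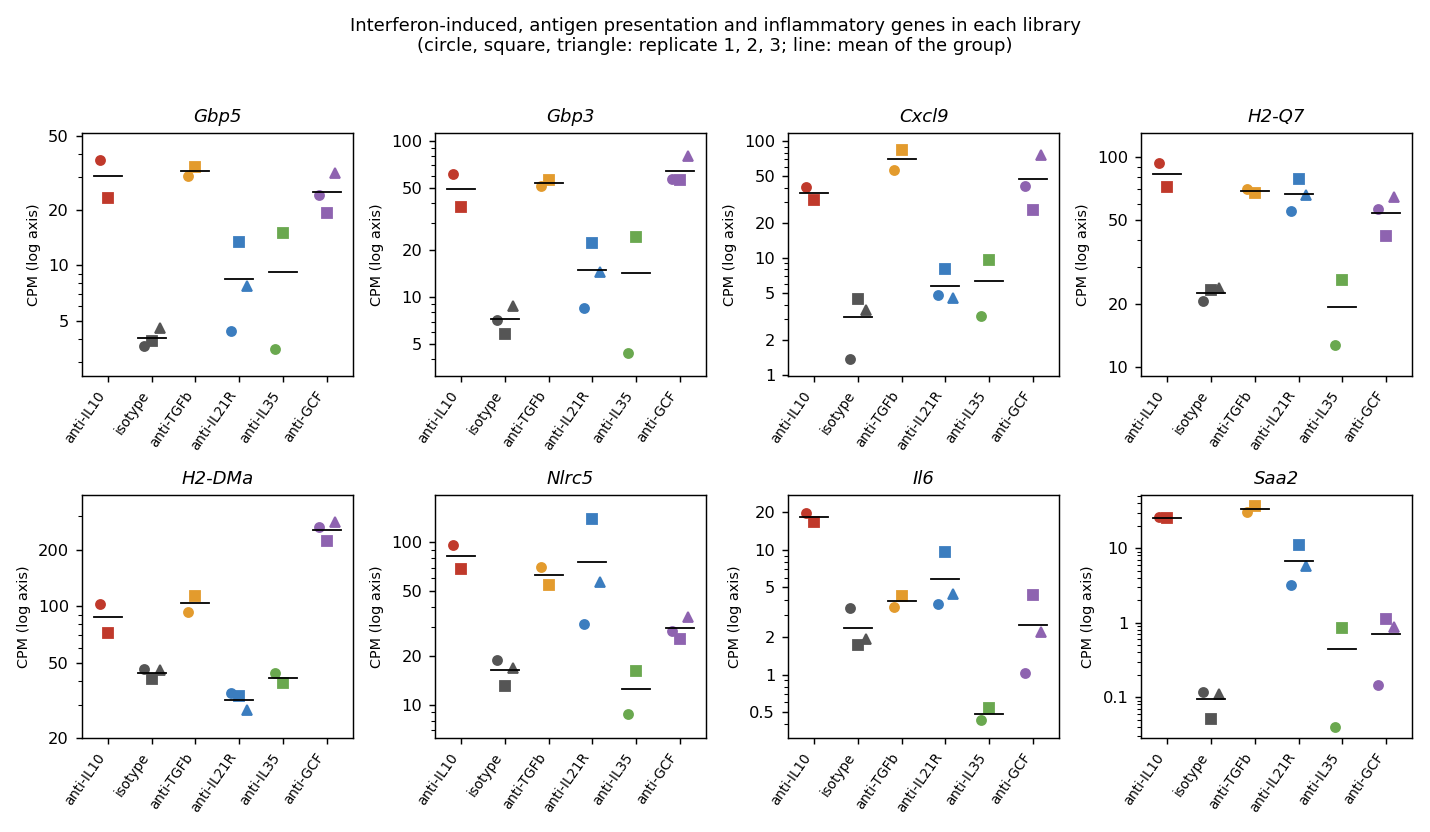
CPM of 8 interferon-induced, antigen presentation and inflammatory genes (log axis) in each library of the 6 antibody groups, with symbols for replicate numbers and lines for group means. The anti-IL10 points lie above the isotype points in all 8 panels, for example 40.3 and 31.7 CPM against at most 4.48 CPM for Cxcl9.

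Marker lists of other cells gave mixed results. The 9 liver endothelial markers summed to 148 and 152 CPM with anti-IL10 and 181, 463 and 292 CPM with isotype. Their median log2 fold change was -2.65, with -2.84 for replicate 1 alone and -2.46 for replicate 2 alone. By edgeR 1 was higher and 1 lower, against 10.6% and 6.98% of all genes. By DESeq2 1 was higher and 6 were lower, against 1996 and 2028 of 16812 genes. The 9 dendritic cell markers summed to 337 and 240 CPM with anti-IL10 and 209, 152 and 173 CPM with isotype, and 1 was called higher. The 9 monocyte markers summed to 1423 and 984 CPM with anti-IL10 and 1132, 2035 and 1440 CPM with isotype, groups that overlapped, although 3 were higher and 1 lower. Among them Ccr2, the receptor by which monocytes leave the marrow, had 98.4 and 79.2 CPM with anti-IL10 and 15.03, 23.4 and 15.9 CPM with isotype and held in 15 of 15 alternatives. T and NK cells can express Ccr2 as well. None of 13 Kupffer cell and macrophage markers and none of 11 B and plasma cell markers was called by edgeR, which calls 17.6% of all genes. The B and plasma cell markers summed to 9051 and 6221 CPM with anti-IL10 and 4777, 5342 and 4877 CPM with isotype. Their median log2 fold change was 0.68, and 8 of the 11 were higher in both anti-IL10 libraries than in any isotype library. Over all genes tested 27% were. The macrophage markers summed to 512 and 365 CPM with anti-IL10 and 275, 613 and 459 CPM with isotype. The part of other cells in the interferon and MHC results was not tested.

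Of 11 eosinophil, basophil and mast cell markers 4 were higher and none lower, against 10.6% and 6.98% of all genes. In both anti-IL10 libraries 5 of the 11 lay above every isotype library and 3 lay below, against 27% and 21.7% of all genes. The median log2 fold change of the list was 0.81 with both libraries, 1.18 with replicate 1 alone and 0.37 with replicate 2 alone. The basophil protease Mcpt8 had 30.9 and 34.0 CPM with anti-IL10 and 9.21, 8.32 and 9.02 CPM with isotype, and the transcription factor Gata2 had 15.6 and 10.9 CPM with anti-IL10 and 2.48, 1.82 and 1.86 CPM with isotype. Both were well apart between the groups in both anti-IL10 libraries, and narrowly lost their call without replicate 1 (adjusted p of 0.0562 and 0.0786, edgeR). Of 7 stellate cell and fibroblast markers tested, 2 collagen genes were higher and 1 other member was lower. The median log2 fold change of the list was 2.60 with both libraries and -0.20 with replicate 2 alone. Both collagen genes were far higher in replicate 1 than in replicate 2. Col3a1 had 21.9 and 1.31 CPM with anti-IL10 and 0.0393, 0.278 and 0.149 CPM with isotype, and Col1a1 had 16.0 and 0.688 CPM with anti-IL10 and 0.197, 0.582 and 0.335 CPM with isotype. Replicate 2 also lay above every isotype library for both genes. Col3a1 kept its call in 10 of 15 alternatives and Col1a1 in 6 of 14.

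Some genes of the neutrophil itself were lower with anti-IL10, and the size of the difference depended on the anti-IL10 library. Of 20 neutrophil identity genes, 5 were lower, against 6.98% of all genes, and none was higher, with a median log2 fold change of -0.80. The median was -1.48 with replicate 1 alone and -0.29 with replicate 2 alone. Of 16 specific granule genes 4 were lower. Their median was -1.03 with both libraries, -1.72 with replicate 1 alone and -0.49 with replicate 2 alone. S100a8 had 8927 and 20746 CPM with anti-IL10 and 31860, 40639 and 43454 CPM with isotype, with a fitted log2 ratio of -1.38 (SE 0.37, adjusted p = 0.0227, edgeR). Both anti-IL10 libraries lay below all isotype libraries, and replicate 1 lay well below replicate 2.

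The specific granule proteins are packed at the myelocyte and metamyelocyte stages of neutrophil development. Camp, the precursor of the antimicrobial peptide cathelicidin, had 1644 and 4836 CPM with anti-IL10 and 7526, 11210 and 11805 CPM with isotype (log2 fold change -1.65, adjusted p = 0.0332, edgeR). Ltf, lactoferrin, had 4722 and 16131 CPM with anti-IL10 and 18179, 26583 and 18340 CPM with isotype, and missed the threshold at an adjusted p of 0.227. Olfm4 and Lyz2, a marker of a neutrophil subset and a lysozyme, were lower by edgeR at log2 fold changes of -1.45 and -1.19 and lost the call in 7 and 5 of 15 alternatives.

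Of 9 azurophil granule genes tested, which the promyelocyte makes, 5 were lower. Elane, neutrophil elastase, had 2.95 and 6.81 CPM with anti-IL10 and 38.9, 28.9 and 28.4 CPM with isotype (log2 fold change -2.72, SE 0.73, adjusted p = 0.0275, edgeR). The groups were far apart, yet the call was lost in 3 of 15 alternatives, without anti-IL10 replicate 1 and without isotype replicate 2 among them. Mpo, myeloperoxidase, had 11.9 and 19.0 CPM with anti-IL10 and 71.4, 66.7 and 53.0 CPM with isotype, at an adjusted p of 0.0773. Cd63, a granule membrane tetraspanin, had 30.8 and 51.7 CPM with anti-IL10 and 85.9, 116 and 102 CPM with isotype. The median of the list was -1.29 with both libraries, -1.69 with replicate 1 alone and -0.97 with replicate 2 alone. Over all genes 6.98% were called lower with both libraries.

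**Figure D4:**
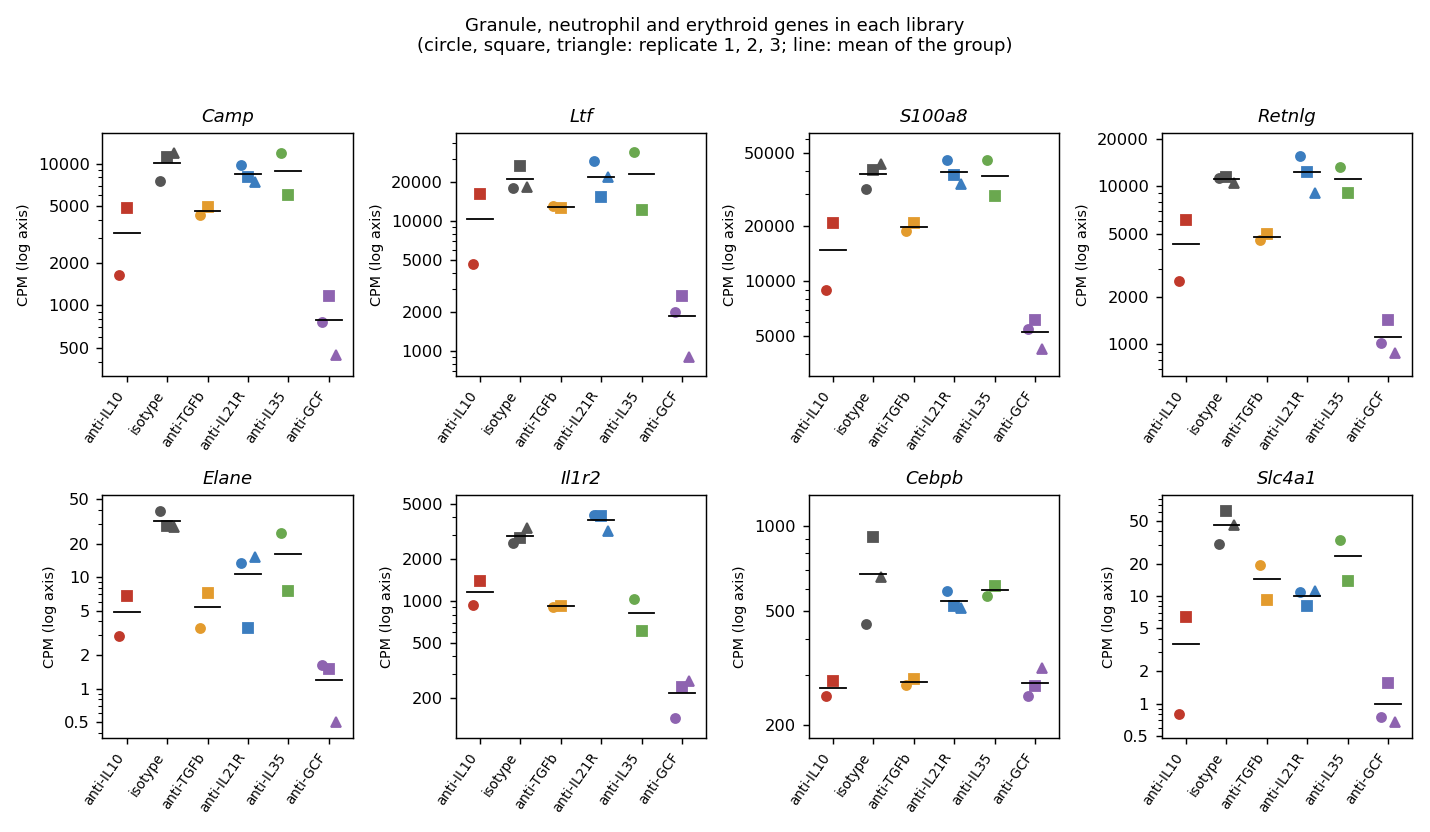
CPM of 8 granule, neutrophil and erythroid genes (log axis) in each library of the 6 antibody groups, with symbols for replicate numbers and lines for group means. Anti-IL10 replicate 1 lies below replicate 2 in every panel (1644 and 4836 CPM for Camp), and both lie below the isotype points.

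Genes of other neutrophil functions differed among themselves. Of 7 NADPH oxidase genes, which make the oxidative burst, 3 were lower, against 6.98% of all genes. The median log2 fold change of the 7 was -0.67 with both libraries, -1.05 with replicate 1 alone and -0.34 with replicate 2 alone. Cyba, a membrane subunit of the oxidase, was among the 3, with 268 and 462 CPM with anti-IL10 and 602, 867 and 806 CPM with isotype. None of 16 chemoattractant receptor and adhesion genes passed. Cxcr2, the receptor that releases neutrophils from marrow, had 798 and 903 CPM with anti-IL10 and 823, 1184 and 1028 CPM with isotype, and Cxcr4, which retains them there, had 708 and 733 CPM with anti-IL10 and 1099, 831 and 838 CPM with isotype. Il1r2, the decoy receptor for interleukin-1, was lower, with 938 and 1389 CPM with anti-IL10 and 2635, 2863 and 3368 CPM with isotype (log2 fold change -1.34, adjusted p = 0.0117, edgeR). Thbs1, thrombospondin, had 249 and 1105 CPM with anti-IL10 and 4704, 4168 and 3075 CPM with isotype, and kept its call in 8 of 15 alternatives.

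Of 12 transcription factors of granulopoiesis 3 were lower and 1 was higher, against 6.98% and 10.6% of all genes. Cebpb, which drives emergency granulopoiesis, had 253 and 285 CPM with anti-IL10 and 453, 915 and 659 CPM with isotype. Irf8, which favours monocytes and dendritic cells over neutrophils, had 130 and 112 CPM with anti-IL10 and 55.1, 34.7 and 44.9 CPM with isotype. These values put the 2 factors on opposite sides, with log2 fold changes of -1.33 (adjusted p = 0.0043) and 1.43 (adjusted p = 0.0101) by edgeR. Both lost the call without anti-IL10 replicate 1.

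Some metabolic and proliferation genes were lower. Of 77 oxidative phosphorylation genes 13 were lower and none higher (median -0.30), of 30 cell cycle genes 8 were lower and none higher (median -0.54), and of 23 glycolysis and hypoxia genes 5 were lower and none higher (median -0.57). Over all genes 6.98% were lower. None of the 3 lists had a call with replicate 2 alone. The glucose transporter gene Slc2a3 had 741 and 1118 CPM with anti-IL10 and 1870, 1966 and 1738 CPM with isotype. The stress response genes Atf4 and Ddit3 were lower by edgeR at log2 fold changes of -1.12 and -1.57, Ddit3 with 45.9 and 35.2 CPM with anti-IL10 and 69.2, 142 and 149 CPM with isotype. Of 10 erythroid markers 5 were lower, and none was called with replicate 2 alone. Slc4a1, the red cell anion exchanger, had 0.806 and 6.42 CPM with anti-IL10 and 30.6, 62.1 and 45.6 CPM with isotype. The summed erythroid level was 133 and 262 CPM with anti-IL10 and 289, 1140 and 2139 CPM with isotype.

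**Figure D5:**
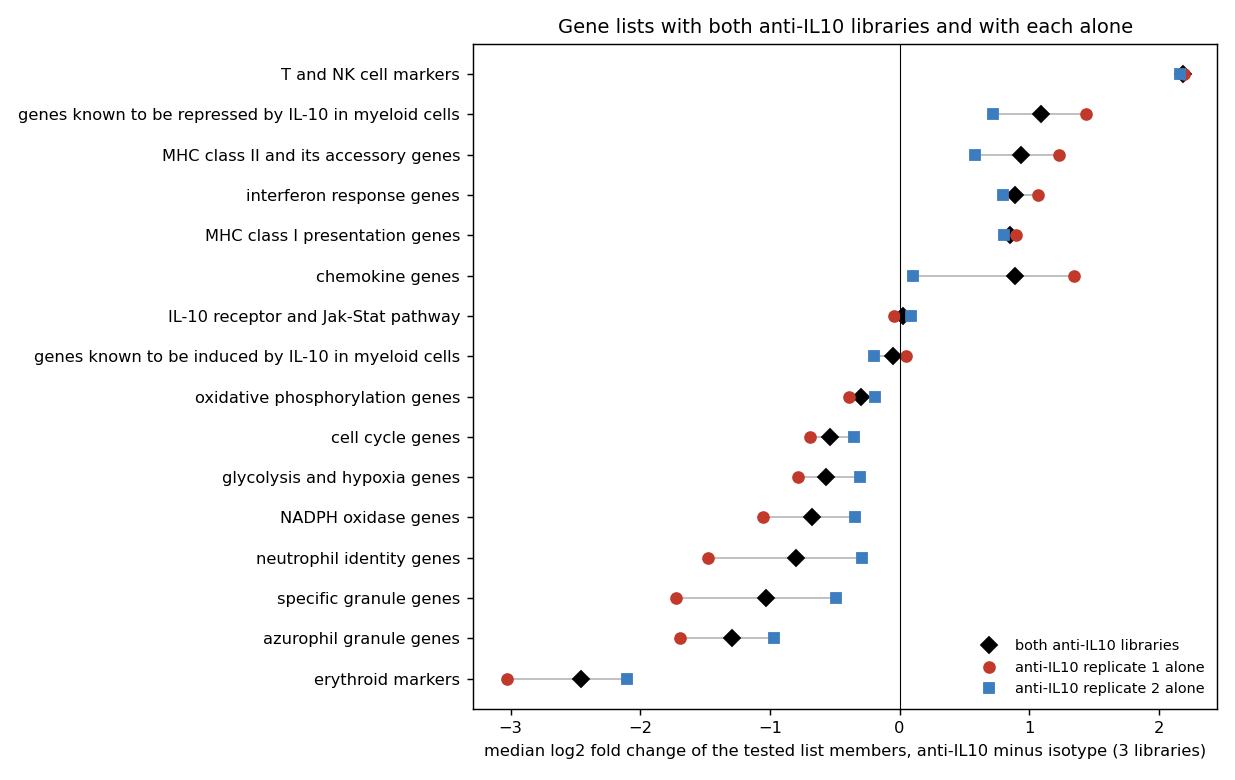
Median log2 fold change of anti-IL10 over isotype (x axis) for 16 gene lists (rows), with both anti-IL10 libraries (black), replicate 1 alone (red) and replicate 2 alone (blue), each against the 3 isotype libraries. The T and NK cell medians fall together near 2.2, while those of the neutrophil identity list spread over -1.48, -0.80 and -0.29.

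Genes lower with both libraries and with each alone numbered 19. Picked from them after their values were seen, Samsn1, an adaptor protein of immune cells, had 227 and 263 CPM with anti-IL10 and 491, 611 and 644 CPM with isotype. Mafk, a small Maf transcription factor, had 250 and 272 CPM with anti-IL10 and 460, 703 and 657 CPM with isotype. Cldn1, a tight junction protein, had 32.1 and 51.5 CPM with anti-IL10 and 122, 148 and 118 CPM with isotype, and the homeobox gene Hhex had 55.6 and 79.9 CPM with anti-IL10 and 137, 190 and 179 CPM with isotype. Each of these 4 held in 15 of 15 alternatives, with log2 fold changes from -1.63 in Cldn1 to -1.22 in Mafk. The alternatives without an anti-IL10 replicate were part of how the 19 genes were selected, so holding in them was fixed in advance.

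Anti-IL10 was also set against the mean of the other 4 antibodies. This contrast does not use the isotype libraries. It called 497 genes (2.96%), 440 higher (2.62%) and 57 lower (0.339%). Of the T and NK markers 11 of 15 were higher in it, with a median of 1.496. The anti-TGFb libraries, which are part of that mean, had summed T and NK markers of 886 and 928 CPM, above the 695 and 681 CPM with anti-IL10. Gzmb was higher by 2.48 log2 units (adjusted p = 2.34e-07) and Il6 by 2.98 (adjusted p = 0.000988) by edgeR. Cxcl9, Gbp5 and Camp did not pass, at log2 fold changes of 0.94, 0.94 and -0.33. Of the lower genes, Nek6, a mitotic kinase, and Thbd, thrombomodulin, were lower than with the other antibodies by edgeR at log2 fold changes of -0.94 and -1.31. Nek6 kept this call in 20 of 21 alternatives and Thbd in 18 of 21. Both lost it without anti-IL10 replicate 1, and Thbd also without replicate 2 and without the anti-GCF libraries. Leaving out single libraries gave -1.13 to -0.75 for Nek6 and -1.45 to -1.15 for Thbd. Without anti-IL10 replicate 1, 43 genes were called.

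Of the other groups, anti-TGFb lay closest by the correlation of log2 CPM over genes, given as a description. Its libraries correlated with those of anti-IL10 at 0.970 to 0.981, against at most 0.966 for a library of any other group. No gene passed between anti-IL10 and anti-TGFb by edgeR (0%), with 1373 (8.17%) at an unadjusted p under 0.05, 140 past the threshold by DESeq2 and 0 by limma-voom. Gzmb had 85.0 and 84.8 CPM with anti-IL10 and 64.8 and 83.9 CPM with anti-TGFb, a log2 difference of 0.19 with a 95% interval from -0.20 to 0.58. Il6 had 19.7 and 16.7 CPM with anti-IL10 and 3.49 and 4.28 CPM with anti-TGFb, a difference of 2.23 with an interval from 0.99 to 3.47 (adjusted p = 0.301, edgeR). Ifitm1 had 311 and 309 CPM with anti-IL10 and 74.0 and 69.9 CPM with anti-TGFb. The median half-width of the 95% interval over all genes was 0.74, without adjustment for the number of genes. Differences well above that size could still miss the adjusted threshold, as that of Il6 did. The lack of calls therefore does not bound the differences at 0.74. Against anti-IL35, by contrast, 4608 genes (27.4%) passed, and 816 passed without anti-IL10 replicate 1. The 2 anti-IL35 libraries stood apart from each other, with summed Kupffer cell and macrophage markers of 329 and 2726 CPM.

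The therapy itself was measured in other libraries, treated liver (n = 2) and untreated liver (n = 2), in a table fitted separately. The library numbers of the treated and untreated liver fall in separate blocks. Therapy therefore cannot be told apart from any difference between those blocks. Of 1612 genes higher with anti-IL10 and tested in both tables, 1071 (66.4%) were lower in treated than in untreated liver and 66 (4.09%) were higher. Over all 13961 genes tested in both, 36.7% were lower and 30.5% were higher in treated liver. Of 1096 genes lower with anti-IL10, 671 (61.2%) were higher in treated liver and 115 (10.5%) were lower. The shared genes made up 20.9% of those lower and 15.8% of those higher in treated liver. Among the 245 genes higher without anti-IL10 replicate 1 and tested in both, 66.9% were lower in treated liver.

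Single genes had this shape. Gzmb had 1.53 and 1.21 CPM in treated liver and 20.7 and 8.98 CPM in untreated liver (log2 fold change -3.44, adjusted p = 0.000225, edgeR). Cish had 1.66 and 1.55 CPM in treated liver and 21.0 and 60.7 CPM in untreated liver. S100a8 had 46567 and 48698 CPM in treated liver and 6522 and 7971 CPM in untreated liver, and Thbs1 had 231 and 310 CPM in treated liver and 8.10 and 17.3 CPM in untreated liver. Gzmb and Cish were thus lower and S100a8 and Thbs1 higher in treated than in untreated liver, each in the direction opposite to anti-IL10 over isotype. Gbp5 and Gbp3 did not pass in the therapy comparison, at log2 fold changes of 1.15 and 0.08.

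Summed markers of several cell types also differed in the therapy comparison. Hepatocyte markers summed to 3230 and 3110 CPM in treated liver and 18370 and 24350 CPM in untreated liver, and neutrophil identity genes to 201961 and 202390 CPM in treated liver and 33765 and 36484 CPM in untreated liver. The 15 T and NK markers, Cd3d included, summed to 257 and 276 CPM in treated liver and 159 and 90.4 CPM in untreated liver. This sum does not describe each marker. Gzma had 2.83 and 2.17 CPM in treated liver and 27.7 and 15.9 CPM in untreated liver. Ncr1, Cd3e and Nkg7 were also lower in treated liver, at log2 fold changes of -2.90, -3.09 and -1.14. Values of the other members are not given singly here. The part of other cells in these opposite directions was not tested.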

How the data were processed

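Per the labels' protocols, liver neutrophil RNA was extracted by RNeasy Mini kit and made into TruSeq Stranded mRNA libraries. Partek, DESeq2, STAR 2.5.3a, Bowtie2 2.2.5 and the build mm10 are listed, per the submitters' processing notes, without the step of each. The counting tool is not given in the sources used here. The deposited antibody table holds raw counts for 22505 rows in 15 libraries, and the authors did not scale them. The deposited blood and liver table holds expected counts for 9 libraries, of which 44.4% are not whole. These estimated counts were rounded.

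Each table was filtered with filterByExpr, scaled by TMM and tested with the edgeR 4.0.16 quasi-likelihood F test (R 4.3.3, limma 3.58.1, DESeq2 1.42.0), with group as the only term and all its libraries in the fit, which leaves 9 residual degrees of freedom in the antibody table. P-values were Benjamini-Hochberg adjusted over all genes tested, with 0.05 as the threshold. Standard errors are the absolute log2 fold change over the root of F. The whole-table fit was tested on simulated data.

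Totals were 23.6 to 47.5 M counts over the antibody libraries, and no libraries were identical. Symbols of 22261 rows matched GENCODE M21. Counting was not stated to use strand, so a gene and its antisense partner may share reads.

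The comparison, its 38 gene lists and the genes named were chosen with earlier results of these data known, so counts of list members are descriptions. Genes were named by a rule: per direction the 12 largest folds among called genes whose higher group averaged 10 CPM or more and whose groups did not overlap, the 5 largest against the other antibodies, up to 4 members of each list and 18 fixed genes. Those printed are a selection from these. Alternatives were DESeq2, limma-voom, upper-quartile and RLE scaling, other filters on low counts, a further threshold of 1 on the absolute log2 fold change, a replicate block, fits of fewer groups and leaving out each library. A group left with 1 library is assumed to vary like the others. Chosen after seeing the data were a fit omitting the second anti-IL35 library and a mean of the antibodies other than anti-TGFb. Promoters are from RefSeq (GRCm38.p6).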

Additional observations from a re-analysis of the deposited data

How the results depend on the processing

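Of the anti-IL10 against isotype count of 2961, leaving out single libraries of the 2 groups compared gave 288 to 3309 calls, the lowest without anti-IL10 replicate 1. Omitting the second anti-IL35 library, chosen after seeing the data, gave 4221. A fit of only the 5 libraries of the 2 groups gave 1052 (859 higher, 193 lower), a further threshold of 1 on the absolute log2 fold change gave 1743, and the other alternatives gave 2015 to 4024. The share of higher calls was 60.4%, and 49.6% with DESeq2, 54.97% with RLE scaling, 68.7% without the anti-GCF libraries and 81.7% with the 5 libraries alone. The replicate block gave 2197 calls (1464 higher, 733 lower). The replicate numbers of the titles need not mark a pairing. Deviations of same-numbered anti-IL10 and isotype libraries correlated at -0.08 and 0.02 over genes. With 2 anti-IL10 libraries the deviations mirror each other, so these values cannot decide whether libraries were paired. The block was an alternative only. The median of all genes stayed within 0.1 under each scaling tried.

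Against the mean of the other 4 antibodies, 497 calls became 966 with DESeq2, 799 with limma-voom and 324 with a filter of 5 CPM. Leaving out single libraries gave 43 (without anti-IL10 replicate 1) to 1393 (without anti-IL35 replicate 1), with 250 and 247 without anti-TGFb replicates 1 and 2. The mean of antibodies other than anti-TGFb, chosen after seeing the data, gave 2011. Against anti-TGFb, DESeq2 gave 140 against 0 by edgeR. Against anti-IL35, 4608 became 2732 with that threshold, and leaving out single libraries gave 816 to 4881. No called gene that was followed singly under the alternatives changed direction. Tyk2, Tlr1, Tlr5, Tlr8, Sox9 and Spp1 were not followed singly. With 8 and 11 isotype counts, the folds of Saa2 and Saa1 are limited by depth. The cause of these dependences was not tested, beyond the smaller number of libraries in each fit.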

Other observations

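Toll-like receptor and adaptor genes divided between the directions. Of 18 tested, 1 was higher with anti-IL10 than with isotype and 5 were lower. Tlr1 was higher at a log2 fold change of 1.67, and Tlr5, the flagellin receptor, and Tlr8 were lower at -1.20 and -0.89. Over all genes 10.6% were higher and 6.98% lower. Of 79 cytosolic ribosomal protein genes 5 were higher, a smaller share than in all genes, and 1 was lower. Of 21 NF-kB feedback and target genes 2 were higher, again a smaller share, and none was lower. None of these was called in the fit without anti-IL10 replicate 1.

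Of 7 cholangiocyte markers tested 3 were higher and 2 were lower, and none was called without anti-IL10 replicate 1. Sox9, a biliary transcription factor, was higher at a log2 fold change of 3.37, and Spp1, osteopontin, was lower at -1.27. None of 9 platelet and megakaryocyte markers and none of 13 gelatinase granule genes was called by edgeR with both libraries. Over all genes 17.6% were called, 10.6% higher and 6.98% lower. The median log2 fold change of the gelatinase granule genes was -0.56 with both libraries and -0.89 with replicate 1 alone.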
